A study of Homo sapiens with 6 samples.

Results

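Respiratory complex I is the entry point of the mitochondrial respiratory chain. It takes electrons from NADH, passes them along a chain of iron-sulphur clusters to ubiquinone, and pumps protons across the inner membrane. A small set of core subunits does this chemistry, many supernumerary subunits surround them, and assembly factors help to build the enzyme without being part of it. MYC proteins are known as activators of nuclear genes for mitochondrial proteins in several cell types, and MYCN is a member of that family.

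The genes described here are the rows of the count table whose symbol begins with NDUF, 48 of 17013 genes with values. They comprise 37 complex I subunit genes, 8 assembly factor genes (NDUFAF1 to NDUFAF8), the pair NDUFA4 and NDUFA4L2, and the readthrough transcript NDUFC2-KCTD14. NDUFA4 and NDUFA4L2 were named as complex I genes, but NDUFA4 is now assigned to complex IV, so both are counted apart. All but NDUFC2-KCTD14 passed the filter on low counts. The 7 complex I subunits encoded by mitochondrial DNA (MT-ND genes) have no row in the table and were not analysed here.

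The libraries are poly(A)-selected RNA of Y79, an established human retinoblastoma cell line with an amplified MYCN gene. Y79 cells carried either an shRNA against MYCN (3 libraries) or a control shRNA with MYCN labelled wild-type (3 libraries). The labels place all 6 libraries in 1 batch and do not say whether they came from separate cultures, so p-values measure only the spread between these libraries, which may be technical. How many hairpins were used, and their sequences, is not given in the sources used here.

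The 6 libraries held 15490263 to 16078416 estimated counts each. Levels below are in CPM, counts brought to a common library total with TMM factors, which correct for differences in RNA composition. MYCN itself stood at 2413, 2284 and 2195 CPM with the MYCN shRNA, against 3046, 3128 and 2876 CPM with the control shRNA, a log2 fold change of -0.39 ± 0.043 (SE; edgeR quasi-likelihood test, adjusted p = 8.0e-11). When counts were scaled by library size alone, this fold change was smaller, at -0.21 (same test, adjusted p = 2.4e-05). Of 10 photoreceptor marker genes, which retinoblastoma cells express, 8 were higher and 2 lower with the MYCN shRNA. Over all tested genes 38.0% were higher and 37.9% lower. The median log2 fold change of these markers was 1.56, with a range from -0.67 to 3.64. Their summed level changed less, at 2374 to 2420 CPM with the MYCN shRNA, against 2262 to 2359 CPM in controls. Marker genes of pigment epithelium summed to 11.3 to 13.2 CPM with the MYCN shRNA and 3.61 to 3.80 CPM in controls, and fibroblast markers to 4.28 to 5.30 and 1.51 to 1.595 CPM. The 3 immune markers in the table summed to at most 0.763 CPM, and 4 Müller glia markers to 648 to 670 CPM with the MYCN shRNA and 829 to 849 CPM in controls. Of these 4, RLBP1 and AQP4 were too low to test. The 2 tested markers had log2 CPM of 1.28 and 9.54, so 1 gene made up nearly all of the sum. Their log2 fold changes were -0.35 and 0.21, with 1 called lower and 1 not called. The part of these marker differences in the complex I results was not tested. In bulk RNA, fewer cells of a type and less RNA per cell cannot be told apart.

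Sequence is shown first for NDUFS7 and NDUFA6, both of which fell. Genes that hold the same motifs and did not fall are described further below. The promoter of NDUFS7, a core subunit gene that fell, held 3 of the 4 motifs searched for, and the promoter of NDUFA6, the subunit gene with the lowest fold change, held 1. Both windows run from 250 bases before to 50 bases after the start of the gene (RefSeq, GRCh38.p14), with NDUFS7 at chr19:1383657-1383956 on the plus strand and NDUFA6 at chr22:42090723-42091022 on the minus strand. Capitals mark an E-box (CACGTG, the site MYC proteins bind with MAX), the palindrome CGCATGCG within the site of NRF1, and AAGATGGCG, a core of the YY1 site, which here contains an ATG.
NDUFS7 promoter: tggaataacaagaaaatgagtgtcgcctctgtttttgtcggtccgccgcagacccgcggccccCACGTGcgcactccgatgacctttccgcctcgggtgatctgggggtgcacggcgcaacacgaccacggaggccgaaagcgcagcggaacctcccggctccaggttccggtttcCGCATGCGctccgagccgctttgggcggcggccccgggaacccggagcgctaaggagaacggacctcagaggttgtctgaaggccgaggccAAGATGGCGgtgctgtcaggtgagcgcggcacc
NDUFA6 promoter: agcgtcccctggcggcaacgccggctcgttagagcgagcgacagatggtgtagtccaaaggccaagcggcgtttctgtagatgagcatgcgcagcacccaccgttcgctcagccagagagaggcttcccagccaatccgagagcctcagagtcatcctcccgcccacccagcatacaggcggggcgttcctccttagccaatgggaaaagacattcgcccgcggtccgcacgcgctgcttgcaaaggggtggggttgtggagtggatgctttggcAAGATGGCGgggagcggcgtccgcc

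The subunit genes were lower with the MYCN shRNA in 24 of 37 cases and higher in 3, while 10 did not pass the test (edgeR quasi-likelihood test, adjusted p under 0.05). Over all 12819 tested genes 37.9% were lower and 38.0% were higher, so the lower share among subunits, 64.9%, stood above the background and the higher share, 8.11%, below it. The share called in either direction, 73.0%, was close to the background of 75.8%. The median log2 fold change of the subunit genes was -0.22, with a range from -1.81 to 0.28, beside a median of 0.0046 over all tested genes. The 8416 tested genes within the abundance range of the subunit genes had a median of -0.02, and 41.3% of them were lower.

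This split rests on the scaling. When counts were scaled by library size alone, the median of all tested genes was 0.19, against 0.0046 with TMM, and 15 subunit genes were lower and 12 higher, beside backgrounds of 26.1% lower and 51.5% higher. The 15 lower and 3 higher calls were shared by both scalings. The subunit median lay -0.23 from the median of all genes, a distance that a change of scaling leaves in place by construction, and the changes reported here are relative to that median. As a share of the library total, which carries no TMM factor, the 37 subunit genes held 0.239%, 0.238% and 0.244% of all counts with the MYCN shRNA, against 0.254%, 0.262% and 0.260% in controls. The MYCN shRNA libraries were all lower than the controls in this share.

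**Figure D1:**
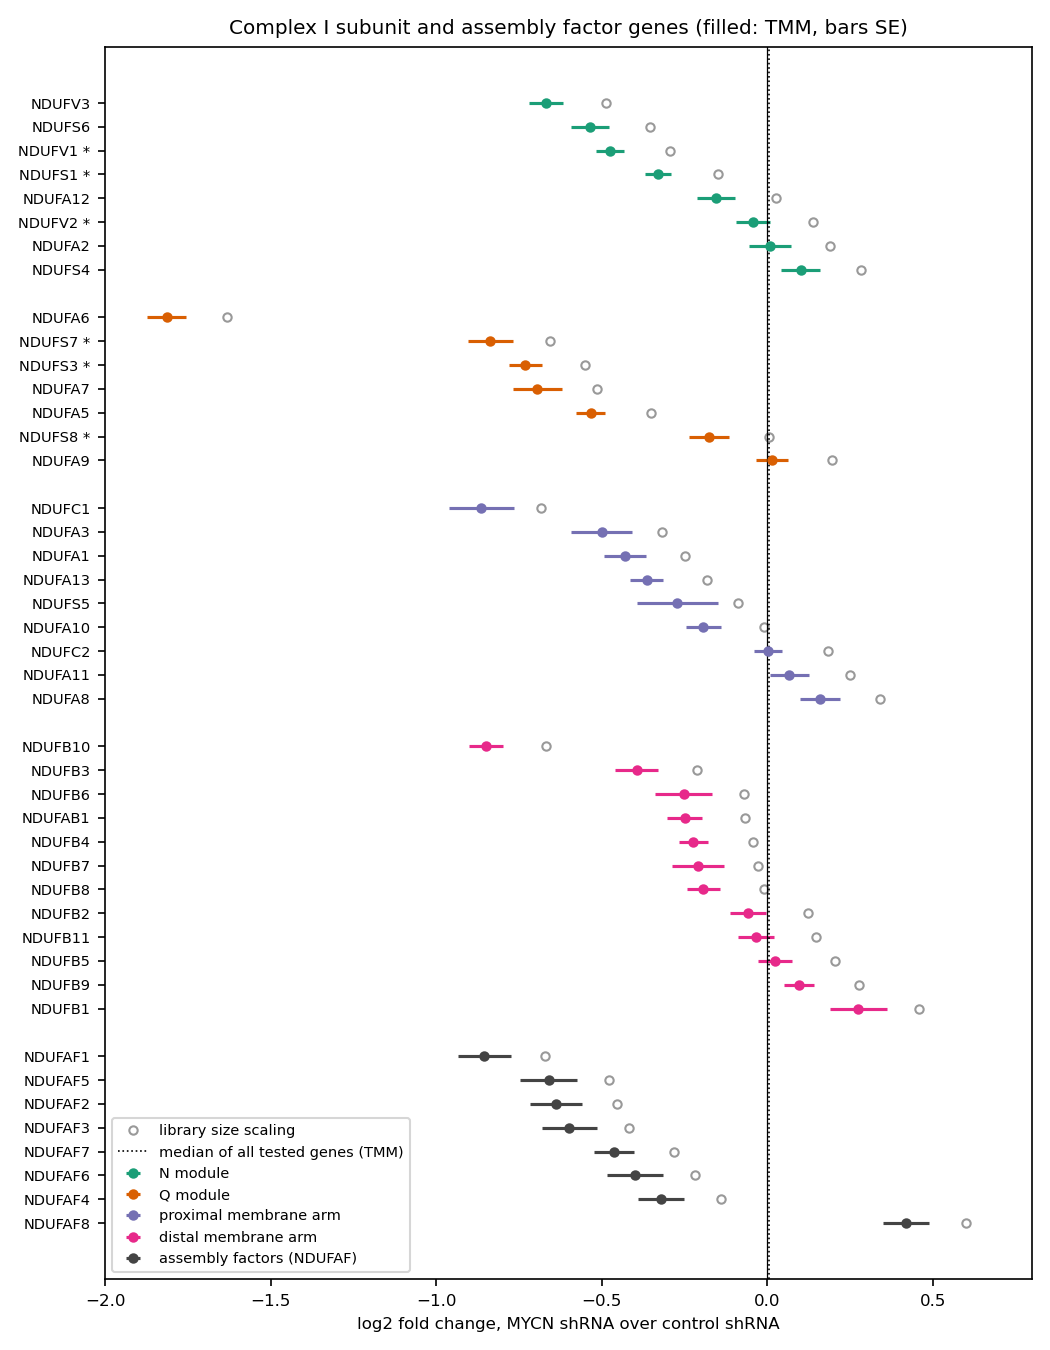
Log2 fold change of 36 subunit genes by module and of each NDUFAF gene, MYCN shRNA over control shRNA (n = 3 each); filled points with SE bars use TMM scaling, open points use library size alone, asterisks mark core subunits, and the dotted line is the median of all tested genes. NDUFA6 lies farthest left at -1.81, and NDUFAF8 is the single NDUFAF gene to the right of 0.

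The peripheral arm, which reaches into the matrix, consists of an N module that oxidises NADH and a Q module that reduces ubiquinone. In the Q module 7 of 8 genes fell and none rose, with a median log2 fold change of -0.61 (-0.43 with library size scaling, under which 5 were lower and 1 higher). In the N module 5 of 8 were lower and none higher with TMM scaling (median -0.24), whereas library size scaling gave 4 lower and 3 higher (median -0.06). Beside these counts, 37.9% of all tested genes were lower and 38.0% higher with TMM scaling, and 26.1% and 51.5% with library size scaling. The difference between the modules was not tested.

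NDUFA6, a supernumerary Q module subunit of the LYR family that binds the acyl carrier protein (chromosome 22, 42085525 to 42090955, GRCh38), had the lowest fold change of all subunit genes. It measured 22.9, 20.4 and 21.4 CPM with the MYCN shRNA, against 74.0, 79.8 and 73.7 CPM with the control shRNA. The groups lay far apart, with a log2 fold change of -1.81 ± 0.060 (edgeR quasi-likelihood test, adjusted p = 8.9e-28; -1.63 with library size scaling). Exons of the divergent noncoding gene NDUFA6-DT overlap it on the other strand, and whether counting used strand is not given in the sources used here.

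The core Q module subunit genes NDUFS7 and NDUFS3 fell as well. NDUFS7 encodes the subunit with the iron-sulphur cluster next to ubiquinone (chromosome 19, 1383527 to 1395589). It stood at 26.6, 22.0 and 25.7 CPM with the MYCN shRNA, against 46.5, 44.6 and 41.3 CPM in controls, a log2 fold change of -0.84 ± 0.067 (edgeR, adjusted p = 1.1e-14). NDUFS3 (chromosome 11, 47565336 to 47584562) stood at 51.7, 52.6 and 52.4 CPM with the MYCN shRNA, against 85.7, 90.2 and 84.0 CPM in controls (log2 fold change -0.73 ± 0.049; edgeR, adjusted p = 3.8e-17). Exons of both genes overlap opposite-strand genes, KBTBD4 in the case of NDUFS3.

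NDUFA7, a supernumerary subunit of the same module (chromosome 19, 8308768 to 8321396), fell by 0.69 ± 0.074 on the log2 scale (edgeR, adjusted p = 3.9e-11). Its levels were 16.4, 16.7 and 17.6 CPM with the MYCN shRNA and 25.5, 29.1 and 27.5 CPM in controls, and its exons overlap those of the ribosomal protein gene RPS28 on the other strand. NDUFA5 fell by 0.53, to 78.1 ± 1.6 CPM with the MYCN shRNA, against 113 ± 2.7 CPM in controls (SD, n = 3 each), although 12 pseudogenes carry its name and reads may be shared with them.

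Other Q module genes lay closer to the median of all genes. NDUFS8, an iron-sulphur protein, had a log2 fold change of -0.18 with TMM scaling and 0.0064 with library size scaling, where its call was lost. NDUFA9, a supernumerary subunit at the junction of the arms, measured 78.5, 81.6 and 79.3 CPM with the MYCN shRNA, against 74.1, 79.4 and 83.6 CPM in controls. Its groups overlapped and it was not called (log2 fold change 0.01, edgeR adjusted p = 0.796). With library size scaling NDUFA9 was called higher, at 0.20 (edgeR, adjusted p = 0.00041).

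The N module genes varied from a clear decrease to no detectable change with TMM scaling. NDUFV1, the core subunit with the flavin that accepts electrons from NADH (chromosome 11, 67605653 to 67612554), measured 115, 117 and 114 CPM with the MYCN shRNA, against 163, 166 and 152 CPM in controls. The groups did not overlap, and the log2 fold change was -0.48 ± 0.042 (edgeR, adjusted p = 2.2e-13; -0.29 with library size scaling). NDUFS1, the largest subunit and carrier of several iron-sulphur clusters, stood at 165, 163 and 162 CPM with the MYCN shRNA, against 203, 200 and 213 CPM in controls (log2 fold change -0.33 ± 0.039; edgeR, adjusted p = 7.0e-10). NDUFV2, the third core subunit of this module, measured 56.5 ± 2.2 CPM with the MYCN shRNA and 58.2 ± 2.1 CPM in controls (SD, n = 3 each). Its libraries overlapped and it was not called (log2 fold change -0.04, edgeR adjusted p = 0.461; 0.14 and adjusted p = 0.0189 with library size scaling).

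Of the supernumerary N module genes, NDUFV3 fell by 0.67 and NDUFS6, which binds zinc, by 0.54. NDUFV3 averaged 48.7 ± 2.1 CPM with the MYCN shRNA and 77.4 ± 0.64 CPM in controls, and NDUFS6 averaged 32.3 ± 1.8 and 46.9 ± 1.3 CPM (SD, n = 3 each). NDUFA12 had a log2 fold change of -0.16, which passed the test with TMM scaling, while library size scaling gave 0.03; the call was also lost without MYCN shRNA replicate 2 (adjusted p = 0.135) or control replicate 3 (adjusted p = 0.0962). NDUFS4 (0.10, edgeR adjusted p = 0.112) and NDUFA2 (0.0075, edgeR adjusted p = 0.922) did not pass. With library size scaling both were called higher, at 0.28 and 0.19. Without control replicate 3 NDUFS4 was called higher (0.13, adjusted p = 0.0489).

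Of the 7 core subunit genes, all in the N and Q modules, 6 fell and none rose, with a median log2 fold change of -0.33. Among the 30 supernumerary subunit genes of both arms 18 fell, 3 rose and 9 did not pass, with a median of -0.22. With library size scaling the core medians and supernumerary medians were -0.15 and -0.03, with 4 and 11 genes lower and 1 and 11 genes higher. All tested genes had 37.9% lower and 38.0% higher with TMM scaling, and 26.1% and 51.5% with library size scaling. No test compared these classes.

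The membrane arm holds the proton pumps, whose core subunits are the mitochondrially encoded ones, so every nuclear gene of this arm is supernumerary. In its proximal part 5 of 9 genes were lower and 1 was higher, and the median log2 fold change was -0.27 (4 lower, 3 higher and -0.09 with library size scaling). In the distal part 7 of 12 were lower and 2 higher (median -0.20), whereas library size scaling gave 2 lower and 5 higher there. The shares over all tested genes were 37.9% lower and 38.0% higher with TMM scaling. With library size scaling they were 26.1% lower and 51.5% higher.

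NDUFC1 (chromosome 4, 139266880 to 139302551) and NDUFB10 (chromosome 16, 1959508 to 1961975) were the lowest genes of the membrane arm. NDUFC1 measured 8.87, 10.01 and 8.79 CPM with the MYCN shRNA, against 17.2, 18.2 and 14.9 CPM in controls (log2 fold change -0.86 ± 0.098; edgeR, adjusted p = 1.8e-10). NDUFB10 measured 50.6, 48.0 and 47.3 CPM with the MYCN shRNA, against 84.3, 93.9 and 84.8 CPM in controls (log2 fold change -0.85 ± 0.052; edgeR, adjusted p = 1.9e-18). Neither gene had overlapping groups, and both kept their call with library size scaling, at -0.68 and -0.67. A further 4 genes of the arm fell by 0.36 to 0.50: NDUFA3, NDUFA1, NDUFB3 and NDUFA13, the last also known as GRIM-19.

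A group of membrane arm genes lay close to the bulk of transcripts. NDUFA10, NDUFB8, NDUFB4, NDUFB7, NDUFB6 and NDUFAB1, the mitochondrial acyl carrier protein, fell by 0.19 to 0.25 with TMM scaling, and none of these 6 calls held with library size scaling. NDUFC2, NDUFB2, NDUFB5, NDUFB11 and NDUFA11 had log2 fold changes between -0.06 and 0.07 that did not pass. With library size scaling each of them was called higher, at 0.12 to 0.25. Without control replicate 3 NDUFB11 was called lower (-0.12, adjusted p = 0.0343). The call of NDUFB7 was also lost without MYCN shRNA replicates 1 or 3 or control replicate 2 and with DESeq2 (adjusted p up to 0.173), and that of NDUFB6 without MYCN shRNA replicate 1 or control replicate 3 (adjusted p up to 0.0603).

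NDUFS5, a subunit on the intermembrane space side, had the highest level of the subunit genes. It measured 188, 193 and 204 CPM with the MYCN shRNA, against 197, 249 and 260.0 CPM in control replicates 1, 2 and 3. Control replicate 1 fell within the range of the MYCN shRNA libraries, and the log2 fold change of -0.27 ± 0.12 did not pass the test (edgeR, adjusted p = 0.109). Without control replicate 1 it was -0.39 (adjusted p = 1.9e-09), and DESeq2 gave an adjusted p of 0.0404. A fit with a block for replicate number also called NDUFS5 lower. There are 7 pseudogenes named after NDUFS5.

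The subunit genes that rose with TMM scaling did so by little. NDUFB1 (chromosome 14, 92116122 to 92121917) measured 17.0, 16.5 and 16.4 CPM with the MYCN shRNA, against 12.9, 13.7 and 14.7 CPM in controls, with no overlap (log2 fold change 0.28 ± 0.086; edgeR, adjusted p = 0.0041). NDUFA8, a twin cysteine motif protein of the intermembrane space, had 0.16 ± 0.061 (adjusted p = 0.0176), with 37.7 ± 1.5 CPM with the MYCN shRNA and 33.8 ± 1.6 CPM in controls (SD, n = 3 each). NDUFB9, an LYR protein like NDUFA6, had 0.10 ± 0.044 (adjusted p = 0.0484), with 105 ± 3.9 and 98.6 ± 2.1 CPM. The call of NDUFA8 was lost without MYCN shRNA replicate 1 or 3 or control replicate 2 and with DESeq2, with adjusted p between 0.0628 and 0.104. That of NDUFB9 was lost without MYCN shRNA replicate 1 or 3 or control replicate 1 or 3. It was also lost with DESeq2, with RLE scaling (another scaling method) and with no filter. Adjusted p for NDUFB9 in these fits lay between 0.0535 and 0.229. With library size scaling NDUFB1, NDUFA8 and NDUFB9 kept their calls, with larger log2 fold changes of 0.46, 0.34 and 0.28.

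**Figure D2:**
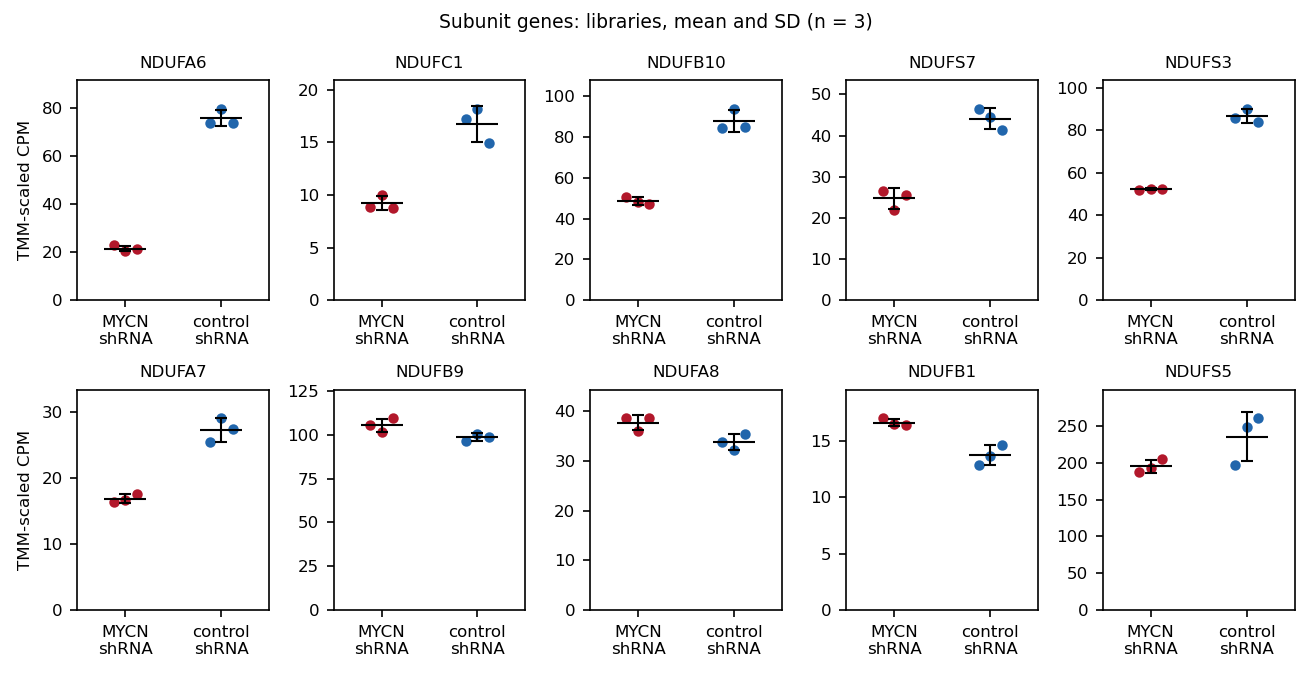
TMM-scaled CPM in each library (points), with mean and SD (n = 3), for the 6 subunit genes with the lowest called fold changes, the 3 that rose and NDUFS5; red is MYCN shRNA, blue is control shRNA. NDUFA6 lies at 20.4 to 22.9 CPM with the MYCN shRNA, against 73.7 to 79.8 CPM in controls, while control replicate 1 of NDUFS5 lies within the MYCN shRNA range.

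The proportions of counts among the subunit genes changed with these differences. Q module genes took 18.04%, 18.03% and 17.7% of subunit counts with the MYCN shRNA, against 21.4%, 21.1% and 20.5% in controls. Without NDUFA6 these shares were 17.1% ± 0.18 with the MYCN shRNA and 18.8% ± 0.43 in controls (SD, n = 3 each), so the groups stayed apart. The distal membrane arm took 33.1%, 33.1% and 33.5% with the MYCN shRNA, against 30.7%, 31.1% and 30.7% in controls. The N module shares overlapped between groups, at 23.6% to 24.3% and 24.1% to 25.3%. Such shares sum to a constant, so a decrease in 1 module raises the others. They are given without a test because the genes were chosen as a group.

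Levels of different genes can be compared per length. NDUFS5 was highest at 356 CPM per kilobase of transcript with the MYCN shRNA and 430 in controls, followed by NDUFB8 at 226 and 258. NDUFB9 came next with the MYCN shRNA (148, against 139 in controls) and NDUFB4 in controls (145 with the MYCN shRNA, 169 in controls). Among subunit transcripts shorter than 4676 bases, NDUFC1 was lowest with the MYCN shRNA (11.4 CPM per kilobase, against 20.7 in controls) and NDUFA3 was lowest in controls (13.1 with the MYCN shRNA, against 18.5 in controls). NDUFA9, NDUFA10, NDUFS1 and NDUFV3 have transcript models of 4676 to 11819 bases, which lowers their value per length.

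Assembly factors guide the modules together and modify subunits on the way. Of the 8 NDUFAF genes 7 fell and 1 rose, beside the backgrounds of 37.9% and 38.0%. Their median log2 fold change was -0.53, against -0.22 for the subunit genes, and the gap of -0.31 ran from -0.26 to -0.34 when single libraries were left out. With library size scaling 6 were lower and 1 higher, beside 26.1% and 51.5% of all tested genes. NDUFAF4 lost its call there (edgeR, adjusted p = 0.0672). The libraries of the groups did not overlap for any of the 8, where 76.8% of all tested genes and 26 of 37 subunit genes were without overlap. No test compared the assembly factors with the subunits.

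NDUFAF1, part of the MCIA complex that builds the proximal membrane arm (chromosome 15, 41387349 to 41402519), was the lowest. It measured 12.9, 13.0 and 13.4 CPM with the MYCN shRNA, against 23.8, 22.9 and 24.5 CPM in controls (log2 fold change -0.85 ± 0.079; edgeR, adjusted p = 6.2e-13). NDUFAF5, which hydroxylates NDUFS7, averaged 12.4 ± 0.58 CPM with the MYCN shRNA and 19.6 ± 1.5 CPM in controls and fell by 0.66. NDUFAF2, a paralogue of the subunit NDUFA12 that acts late in assembly, averaged 17.0 ± 0.85 and 26.5 ± 2.9 CPM and fell by 0.64 (SD, n = 3 each).

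NDUFAF3 and NDUFAF4, which act together on the Q module, fell by 0.60 and 0.32. NDUFAF3 measured 14.5, 15.4 and 13.8 CPM with the MYCN shRNA, against 24.0, 22.3 and 19.8 CPM in controls, and its exons overlap those of DALRD3 on the other strand. NDUFAF4 measured 24.8, 23.8 and 25.3 CPM with the MYCN shRNA, against 27.6, 31.5 and 33.1 CPM in controls. NDUFAF7, a methyltransferase, averaged 31.5 ± 1.6 CPM with the MYCN shRNA and 43.4 ± 1.3 CPM in controls and fell by 0.46. NDUFAF6 averaged 15.1 ± 0.91 and 19.9 ± 2.1 CPM and fell by 0.40 (SD, n = 3 each).

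NDUFAF8, a small protein that stabilises NDUFAF5 (chromosome 17, 81239239 to 81241281), was the exception. It measured 30.9, 28.5 and 30.1 CPM with the MYCN shRNA, against 21.7, 23.7 and 21.5 CPM in controls. All MYCN shRNA libraries lay above the controls, with a log2 fold change of 0.42 ± 0.069 (edgeR, adjusted p = 7.2e-07; 0.60 with library size scaling). NDUFAF8 and its partner NDUFAF5 thus moved in opposite directions under both scalings.

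**Figure D3:**
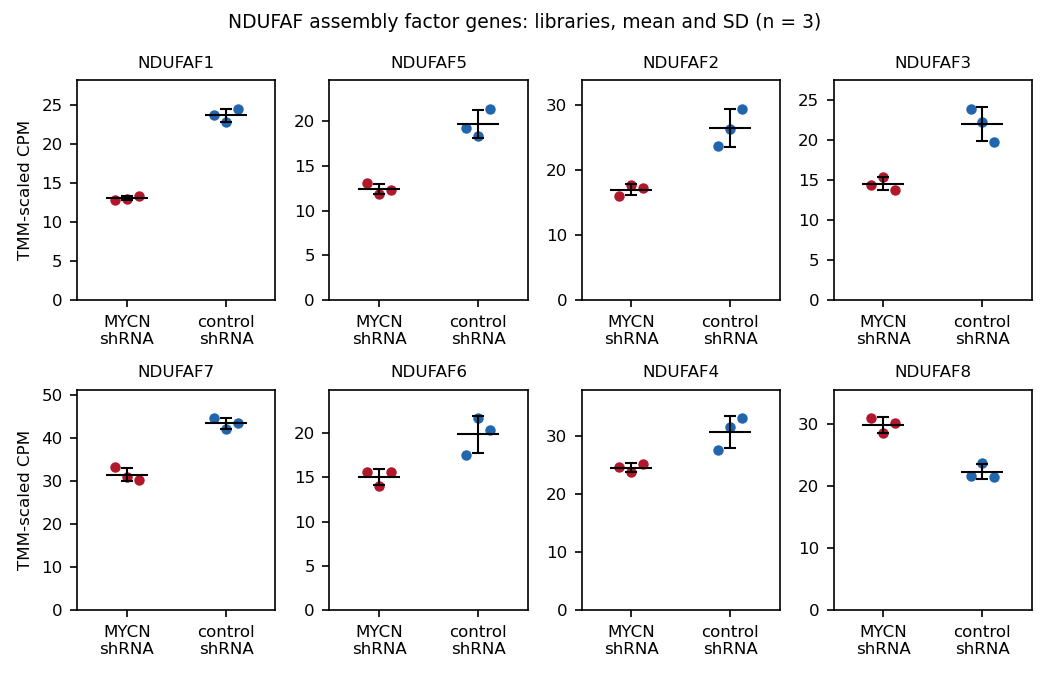
TMM-scaled CPM of the 8 NDUFAF genes in each library (points), with mean and SD (n = 3); red is MYCN shRNA, blue is control shRNA. The MYCN shRNA libraries lie below the controls for 7 genes and above them for NDUFAF8, at 28.5 to 30.9 CPM against 21.5 to 23.7 CPM.

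The assembly factor counts were lower relative to the subunit counts as well. There were 7.19, 6.96 and 6.86 NDUFAF counts per 100 subunit counts with the MYCN shRNA, against 7.55, 7.48 and 7.64 in controls. The groups did not overlap. Leaving out NDUFAF8, the ratio was 5.68 ± 0.13 with the MYCN shRNA and 6.75 ± 0.12 in controls (SD, n = 3 each).

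**Figure D4:**
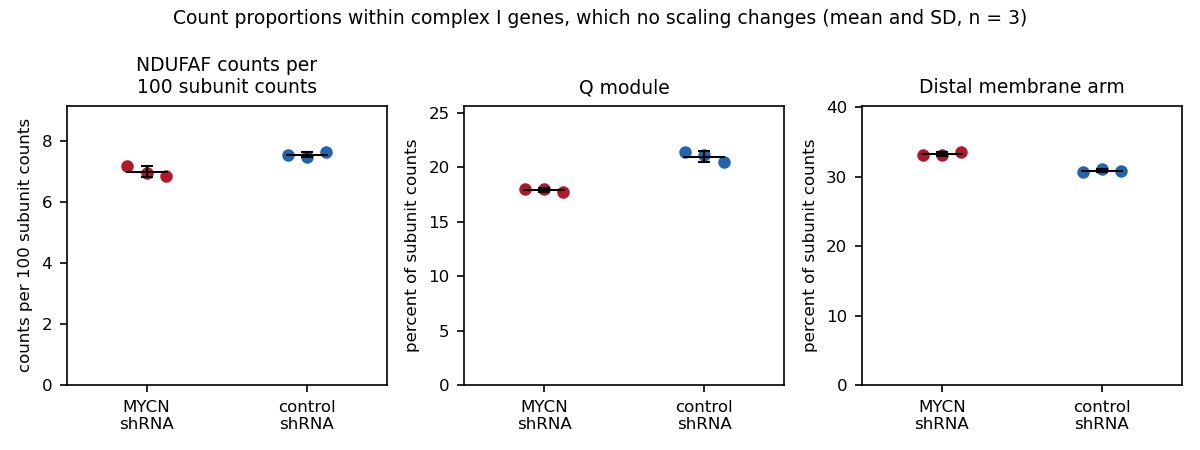
Proportions of counts within each library (points), with mean and SD (n = 3): NDUFAF counts per 100 subunit counts, and the percent of subunit counts in Q module and distal membrane arm genes; red is MYCN shRNA, blue is control shRNA. The Q module share is 17.7% to 18.04% with the MYCN shRNA, against 20.5% to 21.4% in controls.

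Assembly genes that do not carry the NDUFAF name gave a mixed picture. Of 16 such genes 6 fell, 5 rose and 5 did not pass, with a median log2 fold change of -0.03, close to all tested genes. The 37.5% that fell and 31.3% that rose were near the backgrounds of 37.9% and 38.0%. With library size scaling 5 were lower and 6 higher, beside 26.1% and 51.5% of all tested genes. ECSIT, a partner of NDUFAF1 in the MCIA complex, fell by 0.96, to 29.7 ± 1.1 CPM with the MYCN shRNA, against 57.8 ± 2.7 CPM in controls (SD, n = 3 each; edgeR, adjusted p = 8.7e-19). COA1, another protein found with that complex, fell by 0.66. LYRM2, an LYR protein linked to the N module, rose by 0.52 and TMEM70, which acts in assembly of complexes I and V, by 0.36. The following members of the MCIA assembly were picked after their values were seen: TMEM186 had -0.46, ACAD9 0.04 (adjusted p = 0.547), TMEM126B 0.25 and TIMMDC1 0.19. NUBPL, which delivers iron-sulphur clusters to complex I, was likewise picked, at 0.79 ± 0.13 (8.32 ± 0.27 CPM with the MYCN shRNA and 4.79 ± 0.30 CPM in controls).

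Genes that supply iron-sulphur clusters and those that regulate respiratory genes were measured beside complex I. Of 14 tested iron-sulphur cluster genes 9 were lower and 2 higher (median -0.21), beside 37.9% lower and 38.0% higher over all tested genes. Library size scaling gave 5 lower and 4 higher (median -0.03), beside 26.1% lower and 51.5% higher over all tested genes. The chaperone gene HSPA9 (-0.83) and LYRM4 (-0.95), which encodes a partner of the cysteine desulphurase NFS1, had the smallest p among those that fell. NFU1, which encodes a cluster carrier, rose by 0.56. Of 11 regulators 8 were lower and 1 higher (median -0.44), and with library size scaling 7 were lower and 2 higher, beside the same backgrounds. TFAM, which packages and transcribes mitochondrial DNA, fell to 52.4 ± 2.7 CPM with the MYCN shRNA, against 144 ± 7.4 CPM in controls (SD, n = 3 each; log2 fold change -1.46), and the coactivator gene PPRC1 fell by 0.62. YY1 had 0.10 (adjusted p = 0.0434), a call that was lost without MYCN shRNA replicate 1 or 3 or control replicate 1 or 2, with DESeq2 or with no filter.

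The other respiratory complexes were lower as well. None of the genes in these lists rose with TMM scaling, while with library size scaling 1 in complex II, 1 in complex IV and 3 in complex V were higher. The higher shares over all tested genes were 38.0% with TMM scaling and 51.5% with library size scaling. With TMM scaling 3 of 4 in complex II, 9 of 9 in complex III, 8 of 10 in complex IV and 15 of 18 in complex V fell, beside 37.9% of all tested genes. Under library size scaling 3, 5, 7 and 12 were lower in complexes II, III, IV and V, beside 26.1% of all tested genes. Their median log2 fold changes were -0.49, -0.49, -0.39 and -0.45, each farther below 0 than the -0.22 of the complex I subunit genes. No test compared the complexes. UQCRC2 (-0.54) and CYC1 (-0.69) in complex III, SDHC (-0.53) and SDHD (-0.57) in complex II, COX7C (-3.24) and COX4I1 (-0.44) in complex IV, and ATP5F1B (-0.91) and ATP5PO (-0.67) in complex V had the smallest p in their lists. With library size scaling their lists still had medians of -0.31, -0.31, -0.21 and -0.27 in the same order of complexes II to V.

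**Figure D5:**
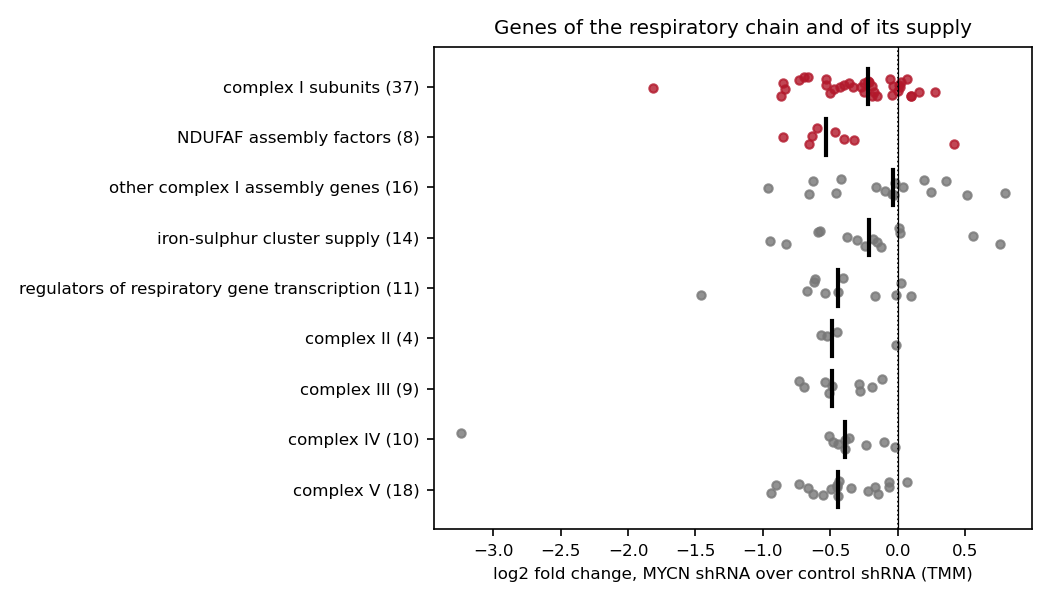
Log2 fold change (TMM) of each tested gene in complex I lists (red) and in related lists (grey), MYCN shRNA over control shRNA; black bars are medians, the dotted line is the median of all tested genes, and the number of genes is in brackets. Medians run from -0.53 in NDUFAF genes to -0.03 in other complex I assembly genes.

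NDUFA4 and NDUFA4L2 moved in opposite directions. NDUFA4, which encodes a cytochrome c oxidase subunit (chromosome 7, 10931951 to 10940256), measured 55.8, 52.8 and 61.1 CPM with the MYCN shRNA, against 139, 131 and 139 CPM in controls (log2 fold change -1.27 ± 0.049; edgeR, adjusted p = 2.4e-25). It has 5 pseudogenes under its present name COXFA4. NDUFA4L2, a paralogue known as a target of hypoxia-inducible factor (chromosome 12, 57234903 to 57240715), held 61, 36 and 59 counts with the MYCN shRNA, against 6, 9 and 3 in controls. Together these are 156 and 18 counts, a ratio of 8.82 per library total with an exact 95% interval of 5.40 to 15.3, which covers counting error only. The fitted log2 fold change was 2.93 ± 0.31 (edgeR, adjusted p = 2.9e-11), and exons of NDUFA4L2 overlap those of SHMT2 on the other strand. The readthrough NDUFC2-KCTD14 held 3.73, 2.87 and 9 counts with the MYCN shRNA and 0, 2.87 and 0 in controls and was too low to test.

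The motifs searched for were found in promoters of genes that fell and of genes that did not. Promoter windows were available for 39 of the 45 subunit and NDUFAF genes. The E-box CACGTG was in 4 of them (10.3%), beside 8.88% of the 15843 promoters in the table and 10.3% of those of tested genes. The 4 genes were NDUFS7, NDUFA7, NDUFAF5 and NDUFA11, with log2 fold changes of -0.84, -0.69, -0.66 and 0.07. In NDUFS7 the E-box starts at position -187 from the RefSeq gene start, as printed above, and in NDUFAF5 at -126.

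The ETS core CCGGAAG was in 6 windows (15.4%; 19.4% of tested genes), CGCATGCG in 5 (12.8%; 4.01%) and AAGATGGCG in 5 (12.8%; 3.95%), all searched on both strands. All 6 genes with the ETS core fell, with a median of -0.35, although of the 39 windows 29 belong to genes that fell and 3 to genes that rose. With library size scaling 4 of the 6 were lower and none higher, and NDUFB7 and NDUFAF4 lost their calls. Of the 5 genes with CGCATGCG 4 were lower and 1 higher, and of the 5 with AAGATGGCG 3 were lower and none higher. Library size scaling gave 3 lower and 1 higher for CGCATGCG, and 3 lower and 2 higher for AAGATGGCG. The 23 genes with none of the motifs had a median of -0.25, with 17 lower and 2 higher. With library size scaling 11 of these 23 were lower and 6 higher. Backgrounds over all tested genes were 37.9% lower and 38.0% higher with TMM scaling, and 26.1% and 51.5% with library size scaling. NDUFS7 held 3 motifs, more than any other member, and AAGATGGCG begins 25 bases after the RefSeq gene start in NDUFA6. AAGATGGCG also begins 10 bases after that start in NDUFA9 and 21 bases after it in NDUFS4. Neither of these genes was called with TMM scaling (log2 fold changes 0.01 and 0.10).

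The 7-base sequences AGCACAA and GTGGATC, which earlier work on these same libraries picked out because transcripts that carry them tended to be lower, were looked up in the complex I transcripts. One or both occurred in 11 of 45 subunit and NDUFAF transcripts (24.4%), against 38.6% of 12722 tested transcripts, and in the 3' untranslated region of 5 (11.1%, against 18.0%). The complex I transcripts had a median length of 963 bases, against 3159 for the tested transcripts, and the difference in shares was not tested. The sites of the genes that fell most are shown beside one of NDUFA9, with the 7 bases in capitals and 11 bases on either side (GENCODE 29).
NDUFA6, 3' untranslated region: tactattttagAGCACAAataaactcact
NDUFA5, 3' untranslated region: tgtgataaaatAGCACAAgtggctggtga
NDUFS3, 3' untranslated region: agggaacgcatGTGGATCctagacagcgc
NDUFC1, coding region: actgtcttcttGTGGATCtatctcatcaa
NDUFAF1, coding region: aggatgaaattGTGGATCattggagagga
NDUFA9, 3' untranslated region: attaacaccttAGCACAAattaaaactag

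NDUFA9 carries AGCACAA and GTGGATC in its 3' untranslated region, yet its log2 fold change was 0.01. NDUFB10, NDUFS7 and NDUFA7, which were among the 6 lowest subunit genes, carry neither. Of the 9 subunit genes with a 7-base sequence 8 fell and none rose, with a median of -0.33. Of the 28 without one 16 fell and 3 rose, with a median of -0.22. Scaled by library size, 5 of the 9 were lower and 1 higher, and 10 of the 28 were lower and 11 higher. Backgrounds over all tested genes were 37.9% lower and 38.0% higher with TMM scaling, and 26.1% and 51.5% with library size scaling. The choice of both sequences used the same fold changes, and the split is given without a test.

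Other properties showed weak relations with the fold changes. Across the 45 subunit and NDUFAF genes Spearman's rho with the log2 fold change was 0.20 for abundance, -0.26 for transcript length and -0.07 for GC content. Over 12722 tested genes the values were -0.18, 0.12 and -0.04. These are correlations across genes that share the same 6 libraries and are given as a description. Among 18 subunit genes with a named pseudogene 9 were lower and 3 higher (median -0.17), and among 19 without one 15 were lower and none higher (median -0.33). Scaled by library size, 5 of the 18 were lower and 8 higher (median 0.0082), and 10 of the 19 were lower and 4 higher. Backgrounds over all tested genes were 37.9% lower and 38.0% higher with TMM scaling, and 26.1% and 51.5% with library size scaling. Exons of 16 of the 45 genes overlap a gene on the opposite strand.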

How the data were processed

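The authors deposited estimated counts per gene symbol, unscaled between libraries; 12.5% to 12.8% of the values in a library are not whole. Reads were placed on GRCh38, per the submitters' processing notes, and RNA was poly(A)-selected, per the labels' protocols. The software, strand setting and gene models behind the counts were not given in the sources used here. Of 17035 rows, 22 without values were left out. Groups came from library titles. Replicates were not identical (chi-square per degree of freedom 1.75 to 4.42) and each counted as 1 sample.

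Counts were rounded, filtered with filterByExpr (12819 genes), scaled by TMM and tested with the quasi-likelihood test of edgeR 4.0.16 (R 4.3.3), with Benjamini-Hochberg adjustment over all tested genes at 0.05. The method was tested on simulated data in which few genes changed and about as many rose as fell. That simulation could not test the scaling, as 75.8% of tested genes were called in these libraries. Alternatives were DESeq2 1.42.0, other scalings and filters, a replicate block and leaving out each library. Lists are described by counts and medians. Modules and lists came from textbook knowledge, and members and lists were chosen with earlier results of these data known. Named genes were the core subunits, the 6 lowest and all higher subunit calls, all NDUFAF genes, and per list the 2 smallest p-values in each direction. Gene positions and transcripts are from GENCODE 29 (GRCh38), 1 transcript per gene, while promoter windows use RefSeq gene starts. Intervals and depth cover counting error only. Values of some single genes are not reported here, although counts and medians of their lists include them.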

Additional observations from a re-analysis of the deposited data

How the results depend on the processing

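Scaling mattered most. With library size scaling 15 subunit genes were lower and 12 higher, beside 26.1% and 51.5% of all tested genes. The medians under that scaling were -0.042 for subunit genes and -0.35 for NDUFAF genes. That setting turned the sign of NDUFA12 (0.027), NDUFB11 (0.15), NDUFB2 (0.12), NDUFS8 (0.0064) and NDUFV2 (0.14), and lacking a low-count filter turned NDUFA2 (-0.0054) and NDUFC2 (-0.011). DESeq2 called 1 subunit gene higher, and leaving out single libraries gave 1 to 3, with 1 without MYCN shRNA replicate 1 or 3. Leaving out single libraries also turned the sign of genes near 0 that had no call, with ranges of -0.034 to 0.084 for NDUFA2, -0.034 to 0.053 for NDUFA9, -0.12 to 0.010 for NDUFB11, -0.052 to 0.069 for NDUFB5 and -0.016 to 0.021 for NDUFC2. The causes were not tested. Lower subunit calls numbered 22 to 25 in those fits, and the 7 lower NDUFAF calls were made in every one of them.

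Whether the replicate numbers pair the libraries across groups is not given and could not be decided from the counts. Correlations over genes were 0.12, 0.104 and 0.026 for same-numbered libraries and -0.142 to 0.0401 for differently numbered ones. The main fit took the libraries as unpaired. A fit with the replicate block called 25 subunit genes lower and 3 higher. NDUFS5 was the single member whose call changed with it (-0.26, adjusted p = 3.7e-12), while 46 of 47 kept theirs. DESeq2 also called NDUFS5 (adjusted p = 0.0404). Depth limits NDUFA4L2 and NDUFC2-KCTD14, which held at most 61 and 9 counts in a library.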
